A study of Mus musculus with 6 samples.

Results

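The endoplasmic reticulum (ER) unfolded protein response and the ATF4 amino acid stress response were examined through 41 genes in a mouse macrophage line given titanium (Ti) particles. The genes were taken by name and function: 17 ER chaperone and folding genes, the 3 ER stress sensors, 11 genes of ATF4, CHOP and their regulators, and 10 genes of amino acid transport, serine synthesis and one-carbon metabolism. The 41 genes were chosen with earlier results of these data known, so comparing them with all genes is description only. They are 41 of 55536 annotated genes, and 40 of them are among the 15376 genes that passed the filter on low counts. Vldlr, a lipoprotein receptor, had no count in any library and was not tested.

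Total RNA was sequenced from RAW264.7 cells in 6 libraries. The 3 control libraries came from cells given phosphate-buffered saline (PBS) and the 3 Ti libraries from cells given Ti particles, and neither the particle dose nor the exposure time is stated in the labels. The labels state C57BL/6 as the background strain of all 6, although the RAW264.7 line is known to have been established from BALB/c mice. All libraries come from 1 line, and nothing states that replicates were separate cultures, so p-values measure only the spread between these libraries, which may be technical. Rescaled totals were 60242937, 41164142 and 42853939 counts in controls 1, 2 and 3 and 46276680, 37686020 and 48543436 in Ti 1, 2 and 3. At these depths 3 counts correspond to 0.0498 to 0.0797 CPM (a count relative to its library's total, here before scaling). Macrophage markers were present in every library (Lyz2, encoding lysozyme, at 3745 to 5363 CPM). Csf1r (144 to 1598 CPM) and Itgam (11.9 to 112 CPM) varied more between libraries than Lyz2 or Cd68 (52.1 to 74.9 CPM). Epcam, Alb, Kit and Cdh1, markers of other cell types, were at 0 in all 6, and Cd3e, Col1a1 and Pecam1 did not exceed 0.416 CPM. In such bulk RNA, a change in the number of cells that express a gene and a change in RNA per cell cannot be told apart.

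Proteins that enter the ER are folded by chaperones and disulfide isomerases, and when unfolded proteins accumulate the chaperone BiP leaves 3 membrane sensors. IRE1, encoded by Ern1, splices a short intron out of the Xbp1 mRNA. ATF6 is cut and releases a transcription factor, and together XBP1 and ATF6 induce chaperone and degradation genes through the ER stress response element. PERK, encoded by Eif2ak3, phosphorylates eIF2alpha, which slows translation in general but favours that of ATF4. ATF4 is also induced by amino acid shortage and by mitochondrial stress through other eIF2alpha kinases, and it turns on genes of amino acid supply, feedback inhibitors and the transcription factor CHOP, encoded by Ddit3. Macrophages draw on this machinery for the secretion of cytokines and lysosomal enzymes.

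Letters known from the binding elements of these factors were looked for in the promoters. RefSeq promoters of build GRCm38.p6 were available for 35 of the 41 genes, and the 250 bases before the start were searched on both strands. The ER stress response element was searched as CCAAT and CCACG with any 9 bases between them, the shorter element ERSE-II as ATTGG and CCACG with any 1 base between them, and the element bound by ATF4 with C/EBP proteins (CARE) as TGATGNAA, with no overlap between the matches listed here. Each window is given 5′ to 3′ on the gene's strand with the matched element in capitals, and in Creld2, Chac1 and Nupr1 the capitals are the element's reverse complement. They are shown because each arm of the response is known for one of these elements.
Hspa5: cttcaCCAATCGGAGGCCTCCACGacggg
Hsp90b1: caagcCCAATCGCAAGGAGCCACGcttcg
Dnajc3: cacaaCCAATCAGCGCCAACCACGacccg
Creld2: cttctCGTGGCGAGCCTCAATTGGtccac
Pdia6: agagaCCAATGAAAGGCGGCCACGgcgtg
Canx: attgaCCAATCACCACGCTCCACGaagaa
Herpud1: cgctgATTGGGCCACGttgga
Asns: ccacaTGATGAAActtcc
Chac1: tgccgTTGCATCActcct
Nupr1: ccagaTTGCATCAgacag

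The windows lie at chr2:34772020-34772048 (Hspa5, plus strand), chr10:86705633-86705661 (Hsp90b1, minus strand), chr14:118937822-118937850 (Dnajc3, plus), chr15:88819515-88819543 (Creld2, plus), chr12:17266486-17266514 (Pdia6, plus) and chr11:50325795-50325823 (Canx, minus). The shorter ones lie at chr8:94386372-94386392 (Herpud1, plus), chr6:7693220-7693237 (Asns, minus), chr2:119351044-119351061 (Chac1, plus) and chr7:126625568-126625585 (Nupr1, minus). The ER stress response element was found in 7 of 15 chaperone genes with a promoter, the 7th being Calr, in 0 of 11 regulators and in 0 of 7 amino acid genes, against 37 (0.113%) of all 32851 promoters. Hsp90b1 held the element a second time, nearer its start. ERSE-II was found in Herpud1 and in 0.0304% of all promoters. CARE was found in Asns, Chac1, Nupr1, Vldlr and Herpud1 and in 3.45% of all promoters, so it is a far more frequent match. A match is a description of these letters and no evidence of binding.

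No member passed the test of Ti against control. With edgeR's quasi-likelihood test and Benjamini-Hochberg adjustment over 15376 genes, 4 genes (0.026%) passed 0.05, 2 of them higher (0.013%) and 2 lower (0.013%) with Ti, and 0 of the 40 members were among them. The lowest adjusted p of a member was 0.495, for Creld2. An unadjusted p under 0.05 was found for 5 members (12.5%), against 1039 genes (6.76%) of all those tested. DESeq2 called 163 genes higher (1.07%) and 129 lower (0.844%) and 0 of the 39 members to which it gave an adjusted p, the lowest being 0.145. With same-numbered libraries paired, edgeR called 0 genes (0%), the lowest adjusted p of a member was 0.387, and 9 members (22.5%) had an unadjusted p under 0.05 against 9.37% of all genes.

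The members' fold changes were mostly small and above 0. Of the 40, 32 had a higher mean with Ti and 8 a lower one, and their median log2 fold change was 0.14, against 0.0053 over all genes tested, of which 50.9% were higher. Every Ti library was above every control library in 8 members (20%), against 6.63% of all genes, and every Ti library was below every control in 2 members (5%), against 6.71%. The 8 were Hspa5, Hsp90b1, Dnajb9, Dnajc3, Pdia4, Creld2 and Manf of the chaperone genes and Aldh1l2 of the amino acid genes, and the 2 were Atf6 and Psat1. These counts were made with CPM scaled by TMM, a method that sets library sizes from the bulk of genes. Because the members were chosen with earlier results of these data known, an excess over all genes is description only, here and below.

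**Figure D1:**
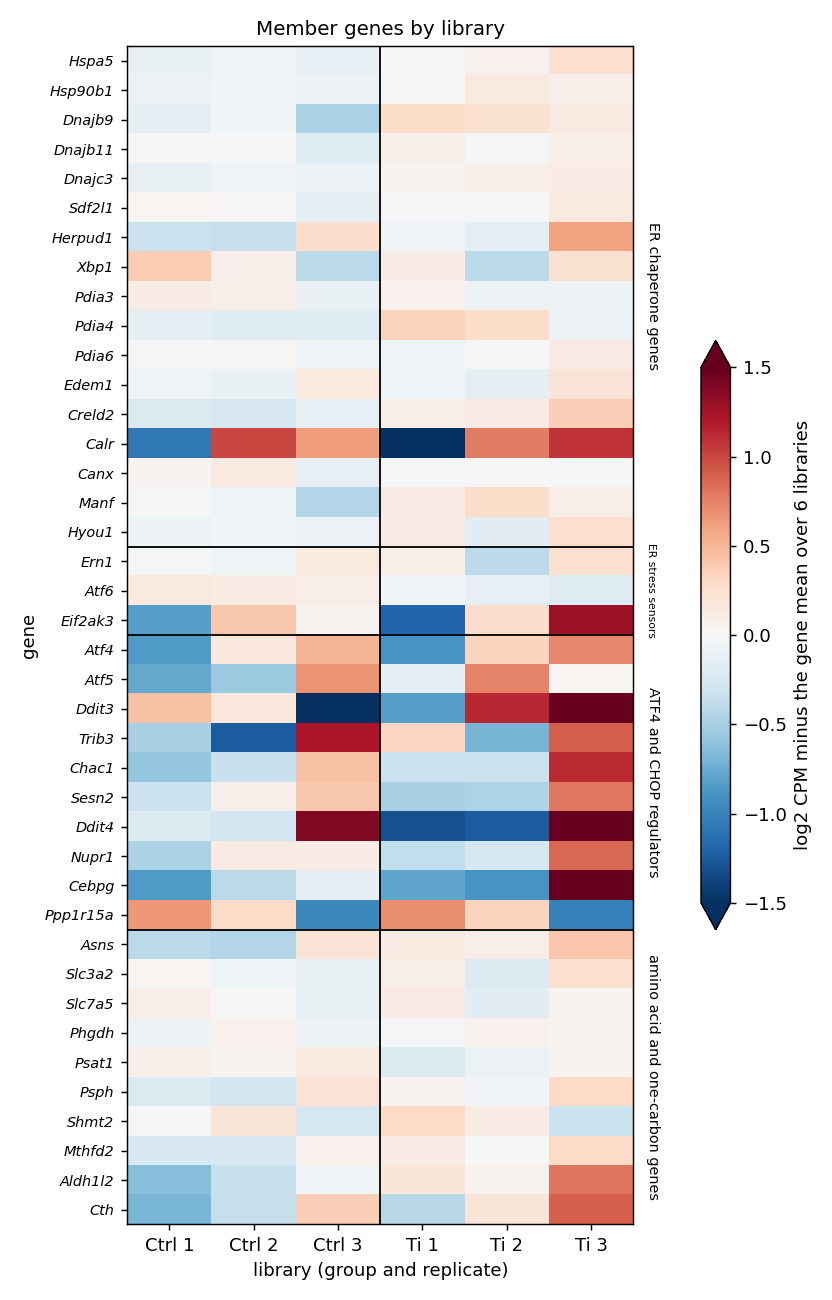
Expression of the 40 detected members by library, as log2 CPM minus the gene's mean over the 6 libraries, with genes in rows, libraries in columns and colours ending at 1.5 in each direction. Among the chaperone genes at the top, Calr is low in control 1 and Ti 1, and Herpud1, Xbp1 and Dnajb9 also vary, while most regulators in the middle are higher in Ti 3, and many of them in control 3, than in replicates 1 and 2.

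**Figure D2:**
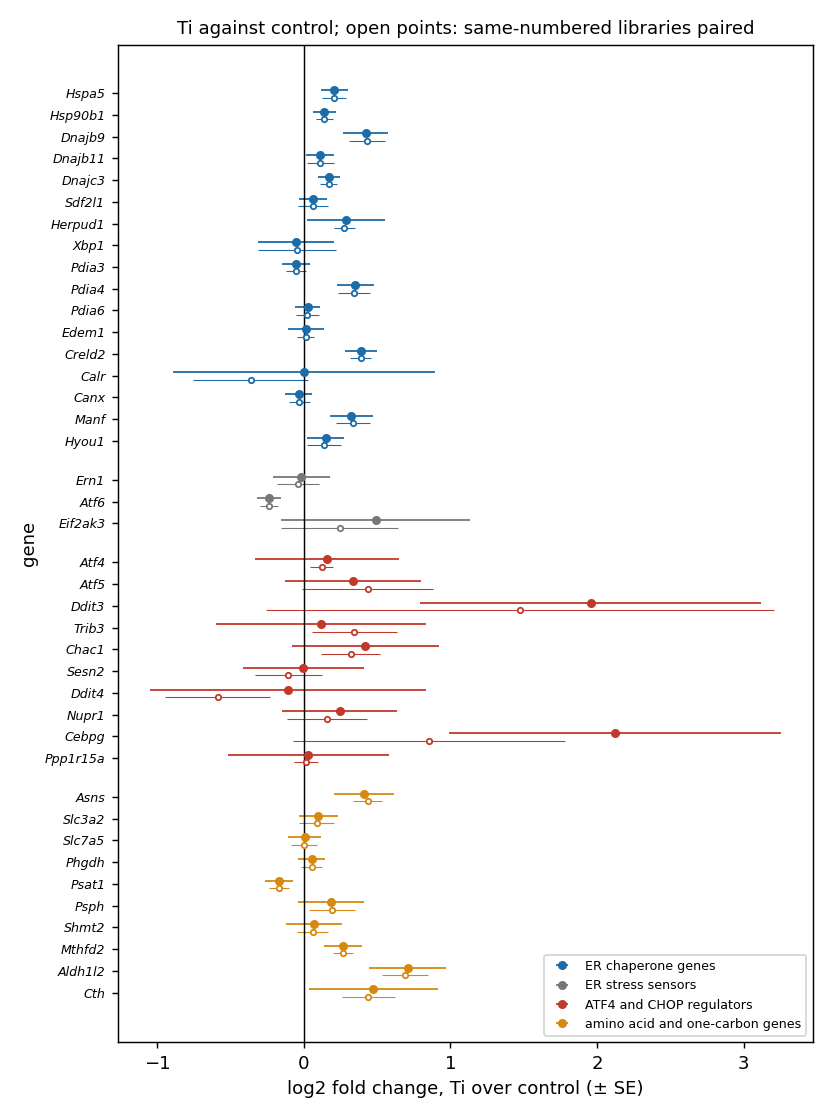
Log2 fold change of Ti over control for the 40 members, with bars of 1 standard error; filled points are from the unpaired fit and open points from the fit that pairs same-numbered libraries. The filled points of the chaperone genes lie between -0.054 and 0.42, most with short bars and Calr with the longest of them (SE 0.89). The open point of Calr lies at -0.36. The filled points of Ddit3 and Cebpg, at 1.96 and 2.12, have standard errors above 1.

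Among the 17 chaperone genes, 14 were higher and 3 lower in the mean, with a median log2 fold change of 0.14. In 7 of them (41.2%) every Ti library was above every control, against 6.63% of all genes and 6.67% of the 8191 genes averaging 10 CPM or more, and none was separated the other way. Without Ti 3 the median was 0.057, and without both libraries numbered 3 it was 0.046. On a per-length scale without TMM, on which the 6 libraries' medians over 15085 genes lay between -0.16 and 0.14 on the log2 scale, only Dnajb9, Pdia4 and Manf (3 of 17) stayed separated, against 5.09% of all genes. Hspa5, Hsp90b1, Dnajc3 and Creld2 were thus separated with TMM scaling and not on that scale. There the chaperone genes' median difference of mean log2 level, Ti minus control, was 0.12, against 0.0072 over the 15085 genes.

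Hspa5, which encodes BiP, the chaperone that also holds the sensors inactive, had 1952, 2011 and 1929 CPM in controls 1, 2 and 3 and 2117, 2208 and 2486 CPM in Ti 1, 2 and 3. All 3 Ti libraries were above the highest control, and Ti 3 was the highest of all. The log2 fold change was 0.21 ± 0.092 (SE; edgeR adjusted p = 0.761). Hsp90b1, encoding the HSP90 of the ER, GRP94, had 1871, 1937 and 1899 CPM in the controls and 1994, 2189 and 2109.8 CPM with Ti. These groups did not overlap either, with a log2 fold change of 0.14 ± 0.079 (SE; edgeR adjusted p = 0.823). Hyou1, encoding a large exchange factor of BiP, had 967, 991 and 956 CPM in the controls and 1113, 903 and 1215 CPM with Ti. Its Ti 1 and Ti 3 were above all controls and Ti 2 was below them, so the groups overlapped, and the log2 fold change was 0.15 ± 0.12 (SE). Per length, Hspa5 and Hsp90b1 were the most abundant members, with mean levels over the 6 libraries of 1075 and 917 (value per exon base, each library scaled to the total of CPM).

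The J-domain proteins that deliver clients to BiP differed among themselves. Dnajb9, encoding ERdj4, had 21.2, 22.7 and 16.8 CPM in the controls and 28.3, 27.4 and 25.7 CPM with Ti. All Ti libraries were above all controls, and control 3 was the lowest, with a log2 fold change of 0.42 ± 0.16 (SE; edgeR adjusted p = 0.688). Dnajc3, encoding p58IPK, an ER co-chaperone that also restrains PERK, had 217, 226 and 219.7 CPM in the controls and 243, 249 and 254 CPM with Ti. Its libraries lay close together within each group and the groups did not overlap, with a log2 fold change of 0.17 ± 0.076 (SE; edgeR adjusted p = 0.764). Dnajb11, encoding ERdj3, had 274, 269 and 236 CPM in the controls and 287, 264 and 289.7 CPM with Ti. Sdf2l1, a partner of ERdj3, had 222, 221 and 196 CPM and 213, 215 and 239.7 CPM. In both the groups overlapped, and log2 fold changes were 0.11 ± 0.10 and 0.063 ± 0.10 (SE).

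Creld2, which encodes an ER protein with isomerase activity induced by ER stress (chr15:88819646-88826683, plus strand), had the lowest p of all members. It had 138, 136 and 147 CPM in the controls and 169.8, 174 and 207 CPM with Ti, that is 139.9 ± 5.88 and 184 ± 20.5 (mean ± SD, n = 3 each). The groups did not overlap and the log2 fold change was 0.39 ± 0.11 (SE; edgeR adjusted p = 0.495). Pdia4, a disulfide isomerase with several thioredoxin domains, had 265, 259 and 259 CPM in the controls and 369, 354 and 276 CPM with Ti. Here Ti 3 was close to the controls and Ti 1 and Ti 2 stood apart, with a log2 fold change of 0.35 ± 0.13 (SE; edgeR adjusted p = 0.671). Pdia3, the isomerase that works with calnexin and calreticulin, had 1076, 1058 and 928 CPM in the controls and 1049, 949 and 950.3 CPM with Ti. Pdia6, which also acts on the sensors' disulfides, had 608, 611 and 578 CPM and 579, 593 and 659 CPM. Both overlapped between groups, with log2 fold changes of -0.054 ± 0.10 and 0.027 ± 0.087 (SE).

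Manf, encoding a secreted protective factor that binds BiP, had 65.7, 62.5 and 48.4 CPM in the controls and 71.1, 79.6 and 70.5 CPM with Ti. The groups did not overlap, and the log2 fold change was 0.32 ± 0.15 (SE; edgeR adjusted p = 0.765). Of the Manf signal 83% was assigned to a transcript annotated as retained intron, and the coding transcript Manf-201, at 3.75, 3.84 and 2.77 CPM in the controls and 2.64, 3.44 and 6.22 CPM with Ti, overlapped between groups. With protein-coding transcripts only, the log2 fold change was 0.21 (edgeR adjusted p = 0.953). In that setting 6 chaperone genes in place of 7 were separated, against 7.22% of all genes. Canx, encoding calnexin, the membrane-bound lectin chaperone, had 905, 967 and 811 CPM and 874, 878 and 869 CPM, with overlapping groups and a log2 fold change of -0.034 ± 0.092 (SE). Calr, encoding its soluble counterpart calreticulin, had 194, 821 and 630.4 CPM in the controls and 77.1, 701 and 869 CPM with Ti. Its libraries fell apart by replicate number and not by group: control 1 and Ti 1 were far below the other 4. Its log2 fold change of 0.0011 ± 0.89 (SE) therefore carries the widest error of the chaperone genes, and it was -0.36 ± 0.39 with replicates paired. The Calr values sum annotated rows only. The share in assembled rows, which were left out, was the highest of its group in control 1 (40.49%) and in Ti 1 (51.17%). Whether that share bears on Calr was not tested.

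The degradation genes were mixed. Herpud1, encoding an organiser of the ER-associated degradation complex, had 72.2, 71.2 and 108 CPM in the controls and 87.7, 82.0 and 138 CPM with Ti. Control 3 was above Ti 1 and Ti 2, so the groups overlapped, but Ti exceeded the control of the same number by 1.21, 1.15 and 1.27 times. The log2 fold change was 0.29 ± 0.27 (SE) unpaired and 0.28 ± 0.073 with pairs (edgeR adjusted p = 0.468), and without Ti 3 the unpaired value was 0.019. Edem1, a lectin that hands misfolded glycoproteins to degradation, had 405, 395 and 468 CPM and 411, 387 and 485 CPM, with overlapping groups and a log2 fold change of 0.016 ± 0.12 (SE). Xbp1, the transcription factor spliced by IRE1, had 34.1, 27.8 and 19.9 CPM in the controls and 28.3, 19.9 and 30.7 CPM with Ti. Its groups overlapped over nearly their whole range, with a log2 fold change of -0.051 ± 0.26 (SE). The shortest annotated intron among its 4 transcripts is 300 bases, so no annotated row separates the mRNA spliced by IRE1 from the unspliced one, and the assembled rows were not used here.

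The sensors did not move together. Atf6 (chr1:170704674-170867771, minus strand) had 373, 365 and 362 CPM in the controls and 329, 309.9 and 294 CPM with Ti. Every Ti library was below every control, though not on the per-length scale, where Ti 1 (67.3) was above controls 1 and 2 (66.1 and 65.4), with a log2 fold change of -0.24 ± 0.081 (SE; edgeR adjusted p = 0.640). Ern1 had 24.3, 23.5 and 27.1 CPM in the controls and 26.3, 18.7 and 28.9 CPM with Ti, and Eif2ak3 had 2.92, 6.91 and 5.39 CPM and 2.27, 6.27 and 12.8 CPM. Both overlapped between groups, Ern1 with Ti 2 as its lowest and Eif2ak3 with Ti 1 as its lowest and Ti 3 as its highest library. Log2 fold changes were -0.018 ± 0.19 for Ern1 and 0.49 ± 0.64 (SE) for Eif2ak3.

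The ATF4 and CHOP regulators were set apart by their spread between libraries. Of 10 tested, 8 were higher and 2 lower in the mean, with a median log2 fold change of 0.20. Of these, 0 were separated upwards and 0 downwards, against 6.63% and 6.71% of all genes, so with 10 genes that count does not set them apart. Atf4 itself (chr15:80255184-80257541, plus strand) had 90.2, 183 and 232 CPM in controls 1, 2 and 3 and 88.7, 206 and 269 CPM in Ti 1, 2 and 3. The 2 series ran in parallel, with the libraries numbered 1 lowest and those numbered 3 highest in both groups. The log2 fold change was 0.16 ± 0.49 (SE; edgeR adjusted p = 0.990), and pairing brought it to 0.12 ± 0.080. ATF4 protein is set largely by translation, which these libraries do not measure.

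Ddit3, encoding CHOP, the pro-apoptotic factor downstream of ATF4, was low and uneven between libraries. It had 56, 29 and 2 counts in the controls and 17, 53 and 225 with Ti, or 0.875, 0.723 and 0.0479 CPM and 0.365, 1.42 and 4.68 CPM. The count in control 3 is below the 3-count floor and Ti 1 is below controls 1 and 2, so the groups overlapped and the fitted log2 fold change of 1.96 ± 1.16 (SE) rests on 2 extreme libraries, and it was 0.68 without Ti 3. Trib3, a pseudokinase that inhibits ATF4 and CHOP, had 2.53, 1.50 and 8.24 CPM in the controls and 4.42, 2.20 and 6.68 CPM with Ti. Chac1, which degrades glutathione, had 3.08, 3.67 and 6.26 CPM and 3.69, 3.70 and 9.98 CPM. In both genes the libraries numbered 3 were highest in either group, and log2 fold changes were 0.12 ± 0.71 and 0.42 ± 0.50 (SE).

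Sesn2 and Ddit4, inhibitors of the growth kinase mTORC1, were likewise highest in the libraries numbered 3. Sesn2 had 10.4, 13.7 and 17.3 CPM in the controls and 9.29, 9.40 and 22.5 CPM with Ti, and Ddit4 had 3.22, 3.04 and 9.66 CPM and 1.50, 1.55 and 11.7 CPM. Ti 1 and Ti 2 were below all controls while Ti 3 was above them all, and log2 fold changes were -0.0044 ± 0.41 and -0.11 ± 0.94 (SE). Nupr1, a stress-induced chromatin protein, had 4.89, 7.41 and 7.36 CPM in the controls and 5.26, 5.68 and 12.3 CPM with Ti, with a log2 fold change of 0.24 ± 0.39 (SE). Atf5, a relative of ATF4 that is likewise regulated by translation, had 3.67, 4.26 and 10.02 CPM and 5.71, 10.5 and 6.41 CPM, with control 3 and Ti 2 highest and a log2 fold change of 0.33 ± 0.46 (SE). The groups overlapped in both.

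Cebpg, a dimerisation partner of ATF4 (chr7:35046422-35056573, minus strand), had 3.42, 4.66 and 5.58 CPM in the controls and 3.58, 3.35 and 52.5 CPM with Ti. A single library, Ti 3, made the log2 fold change of 2.12 ± 1.13 (SE; edgeR adjusted p = 0.823), which was -0.39 without it. Ppp1r15a, encoding GADD34, the phosphatase subunit that reverses eIF2alpha phosphorylation, had 67.8, 52.6 and 22.1 CPM in the controls and 69.8, 54.5 and 21.4 CPM with Ti. Its libraries ran opposite to Atf4, highest in number 1 and lowest in number 3 of either group, and the groups were close to each other at each number, with a log2 fold change of 0.031 ± 0.55 (SE) unpaired and 0.015 ± 0.085 paired.

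The amino acid genes were higher in 9 of 10 cases, with a median log2 fold change of 0.14, the same to 2 decimals as that of the chaperone genes. The median was 0.072 without Ti 3, 0.23 without Ti 2 and 0.22 without control 3. Aldh1l2 was separated upwards and Psat1 downwards (10% each), against 6.63% and 6.71% of all genes, and neither was separated on the per-length scale. The amino acid genes' median difference of mean log2 level on that scale, Ti minus control, was 0.17, against 0.0072 over 15085 genes. By pairs, 5 of 10 (50%) were higher in Ti in all 3 same-numbered pairs, against 18.3% of all genes, and 1 (10%) was lower in all 3, against 17.3%. For the chaperone genes the count higher in all pairs was 8 of 17 (47.1%), against 18.4% of the genes averaging 10 CPM or more, and over all members it was 14 of 40 (35%).

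Aldh1l2, the mitochondrial enzyme that turns 10-formyltetrahydrofolate into tetrahydrofolate and NADPH (chr10:83487450-83534140, minus strand), had 10.8, 13.3 and 16.2 CPM in the controls and 19.1, 17.5 and 29.3 CPM with Ti. Control 3 was just below Ti 2 and Ti 3 stood highest, so the groups touched without overlap. The log2 fold change was 0.71 ± 0.26 (SE; edgeR adjusted p = 0.688), and 0.45 without Ti 3. Asns, asparagine synthetase (chr6:7675169-7693254, minus strand) and the best-known target of ATF4, had 88.2, 86.1 and 134 CPM in the controls and 128, 125 and 157 CPM with Ti. Ti 1 and Ti 2 were above controls 1 and 2 but below control 3. Its log2 fold change was 0.41 ± 0.21 (SE; edgeR adjusted p = 0.804) unpaired and 0.44 ± 0.10 paired (edgeR adjusted p = 0.432).

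Mthfd2, the mitochondrial methylenetetrahydrofolate dehydrogenase of dividing cells, had 132, 132 and 162 CPM in the controls and 169.8, 155 and 189 CPM with Ti. Only control 3 reached into the Ti range, and the log2 fold change was 0.27 ± 0.13 (SE) unpaired and 0.27 ± 0.069 paired (edgeR adjusted p = 0.463). Shmt2, the mitochondrial serine hydroxymethyltransferase one step upstream, had 265, 301 and 222 CPM in the controls and 327, 288 and 214 CPM with Ti. Ti 1 was the highest and Ti 3 the lowest of its 6 libraries, with a log2 fold change of 0.071 ± 0.19 (SE).

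In the serine pathway the first enzyme, Phgdh, had 90.4, 99.7 and 89.9 CPM in the controls and 94.1, 98.9 and 97.6 CPM with Ti. Psat1, the transaminase that follows it, had 426, 418 and 445 CPM and 351, 380.2 and 417 CPM. Phgdh overlapped fully, with a log2 fold change of 0.054 ± 0.091 (SE), whereas every Psat1 value with Ti was below every control, Ti 3 lying just under control 2, with -0.17 ± 0.094 (SE; edgeR adjusted p = 0.827). Psph, the phosphatase of the last step, was low in these cells, at 3.47, 3.32 and 4.70 CPM and 4.18, 3.88 and 4.97 CPM. It overlapped between groups, with a log2 fold change of 0.18 ± 0.23 (SE), which was -0.40 with protein-coding transcripts only.

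The amino acid transporter subunits Slc3a2, the heavy chain, and Slc7a5, the light chain LAT1, overlapped between groups. Slc3a2 had 169.8, 159 and 154 CPM in the controls and 176, 144 and 197 CPM with Ti, and Slc7a5 had 251, 236 and 216 CPM and 256, 209 and 239.9 CPM. Ti 2 was the lowest library of both genes, and log2 fold changes were 0.10 ± 0.13 and 0.0057 ± 0.11 (SE). Cth, the cysteine-producing enzyme cystathionine gamma-lyase, was the least abundant detected member per length, at a mean of 2.11 on the scale used for Hspa5. It had 1.63, 2.04 and 3.38 CPM in the controls and 1.95, 2.95 and 4.87 CPM with Ti. The groups overlapped, Ti being higher in each of the 3 pairs, with a log2 fold change of 0.47 ± 0.44 (SE).

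**Figure D3:**
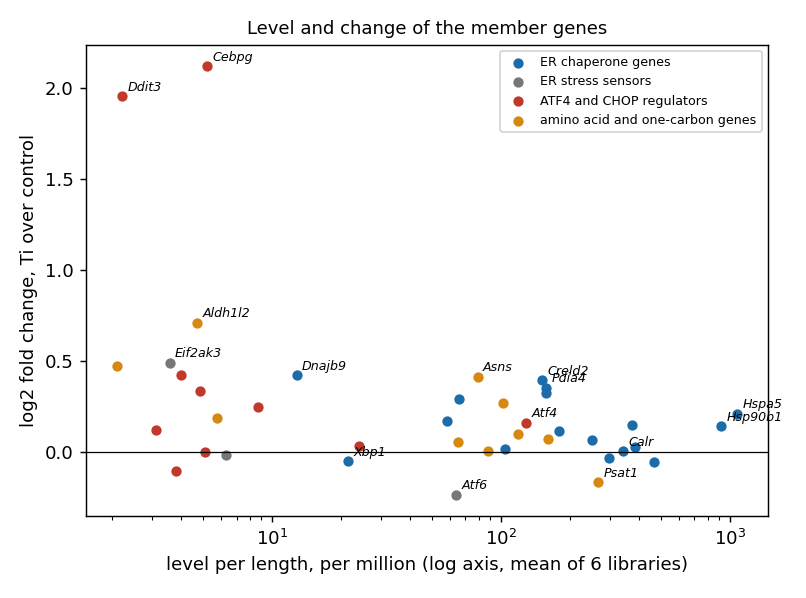
Log2 fold change of Ti over control against the mean level per length over the 6 libraries (log axis), 1 point for each of the 40 members, coloured by role. The abundant genes, Hspa5 and Hsp90b1 at the right, lie at 0.21 and 0.14, and the widest changes belong to Ddit3 and Cebpg among the least abundant genes.

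The ER chaperone arm and the ATF4 amino acid arm were set side by side as the mean over genes of log2 CPM minus each gene's own mean. The chaperone arm was at -0.10, 0.0092 and -0.094 in controls 1, 2 and 3 and at -0.079, 0.057 and 0.21 in Ti 1, 2 and 3. The amino acid arm was at -0.20, -0.14 and 0.036 in the controls and at 0.036, -0.0021 and 0.28 with Ti. The groups overlapped in each arm, as chaperone Ti 1 was below control 2 and amino acid Ti 2 was below control 3. The SD within groups, pooled over both, was 0.11 in the chaperone arm and 0.14 in the amino acid arm. Ti 3 was highest in both arms. In the pairing by number, which was taken from these data, Ti exceeded the control in every pair. The differences were 0.025, 0.048 and 0.31 in the chaperone arm and 0.24, 0.14 and 0.24 in the amino acid arm. Calr alone lowered the first of these: without it the chaperone differences were 0.11, 0.065 and 0.30. The chaperone level minus the amino acid level was 0.10, 0.15 and -0.13 in the controls and -0.12, 0.059 and -0.064 with Ti, so the groups overlapped.

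The regulators were at -0.35, -0.20 and -0.012 in the controls and at -0.41, -0.13 and 1.10 with Ti. Cebpg and Ddit3 made most of the last value: without them the levels were -0.38, -0.22 and 0.47 in the controls and -0.31, -0.20 and 0.63 with Ti. With or without these 2 genes, the libraries numbered 3 were the highest of both groups. Ti minus the control of the same number was -0.064, 0.070 and 1.11 with them and 0.070, 0.025 and 0.16 without them.

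**Figure D4:**
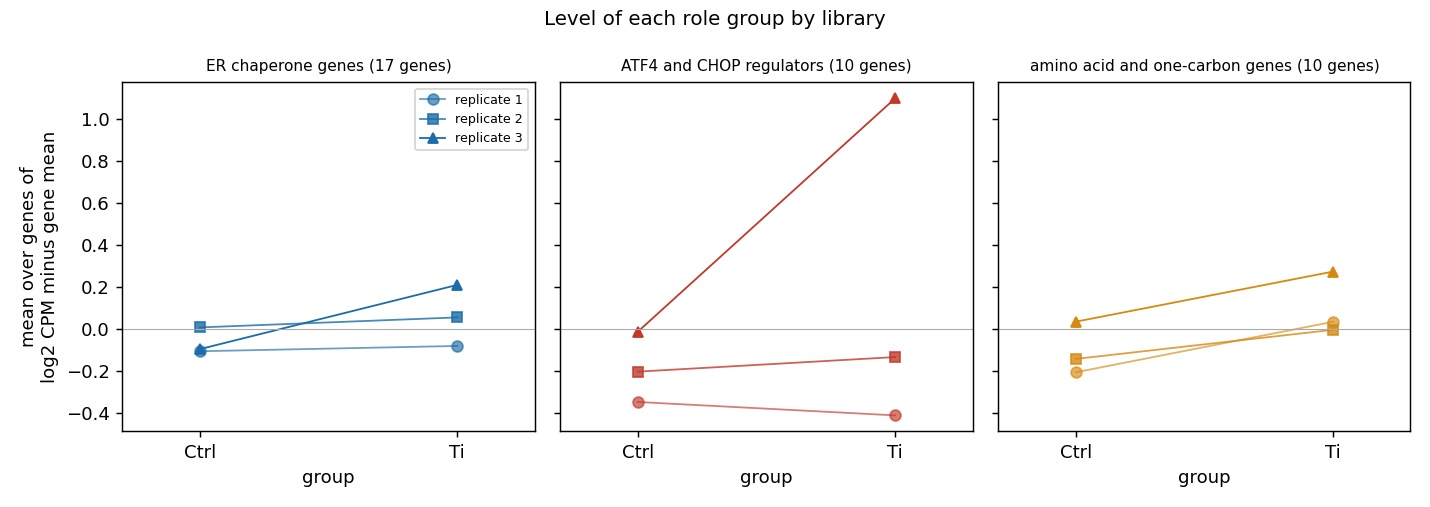
Level of the chaperone genes, the regulators and the amino acid genes by library, as the mean over each group's genes of log2 CPM minus the gene's mean. Lines join libraries of the same number, and the sensors are not shown. Ti lies above the control of the same number in every pair of the chaperone and amino acid genes, and the regulators spread from -0.41 in Ti 1 to 1.10 in Ti 3.

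Many regulators and amino acid genes followed the replicate number alike in both groups. The library numbered 3 was the highest of its group in both groups for 6 of 10 regulators (Atf4, Trib3, Chac1, Sesn2, Ddit4 and Cebpg) and 6 of 10 amino acid genes (Asns, Psat1, Psph, Mthfd2, Aldh1l2 and Cth), but for 3 of 17 chaperone genes (Herpud1, Edem1 and Creld2). Over all members that was 16 of 40 (40%), against 21.2% of all genes tested, while it was the lowest in both groups for 6 of 40 (15%), against 19.7%. In a fit with replicate number as a term, chosen after the values were seen, 12 of 40 members (30%) had an unadjusted p under 0.05 for number, against 12.1% of all genes. They were 6 of 10 regulators, 3 of 10 amino acid genes and 3 of 17 chaperone genes. In the further lists described below, 9 of 33 genes of ATF4 targets and amino acid metabolism (27.3%) had such a p. So did 2 of 29 ER quality control genes (6.90%). No member passed 0.05 after adjustment, where 1 gene (0.0065%) of all did, the lowest edgeR adjusted p being 0.171 for Ppp1r15a and 0.177 for Atf4. What the numbers stand for is not given in the labels, and its part in these values was not tested. The share of a library's total in assembled rows, which were left out, also followed the number. It was 40.49%, 37.92% and 36.9% in controls 1, 2 and 3 and 51.17%, 40.3% and 37.83% in Ti 1, 2 and 3. Whether that share bears on the members' values was not tested.

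The deposited rows are transcripts, and they show which ones carried these values. In 25 of 40 genes 1 transcript held at least 90% of the signal, and in 37 the leading transcript was protein coding. In 6 genes (Manf, Psph, Psat1, Nupr1, Eif2ak3 and Cebpg) more than 25% went to transcripts annotated as retained intron. Calr-201, with 95.3% of Calr, was at 149 and 59.8 CPM in control 1 and Ti 1 and at 602 to 842 CPM in the other libraries. Cebpg-202 was at 47.9 CPM in Ti 3 and at 0.225 to 3.40 CPM elsewhere, so 1 transcript in 1 library made the gene's fold change.

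Herpud1 was split over a pair of protein-coding transcripts. Herpud1-205 was at 51.0, 47.9 and 52.0 CPM in the controls and 57.6, 51.5 and 64.2 CPM with Ti. Herpud1-201 was at 20.1, 22.7 and 51.5 CPM in the controls and 28.1, 28.9 and 67.5 CPM with Ti. The high values of control 3 and Ti 3 thus came mostly from Herpud1-201. Aldh1l2-201, the coding transcript, was at 10.6, 13.1 and 7.68 CPM in the controls and 12.6, 17.2 and 27.4 CPM with Ti, so Ti 1 fell below control 2 and the groups overlapped. The rest of the gene was mainly a retained-intron transcript, Aldh1l2-203, at 5.53 CPM in control 3 and 6.30 CPM in Ti 1 and at most 0.0111 CPM elsewhere. Atf4-201 was at 62.8, 166 and 208 CPM in the controls and 67.5, 187 and 242 CPM with Ti, which is the order of the whole gene. Atf5-202 was at 6.91 CPM in control 3 and 7.91 CPM in Ti 2 and at most at 1.52 CPM elsewhere.

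**Figure D5:**
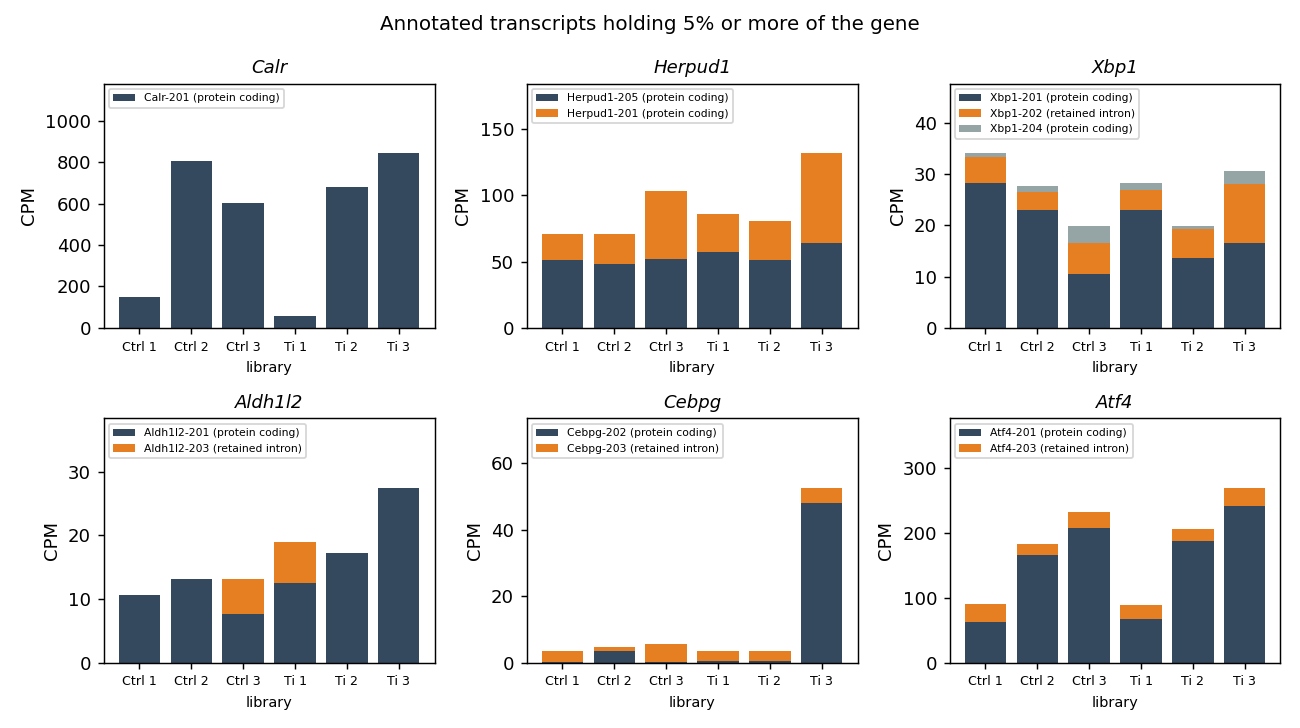
CPM by library of the annotated transcripts that hold at least 5% of Calr, Herpud1, Xbp1, Aldh1l2, Cebpg and Atf4, stacked. Calr and Atf4 are low in control 1 and Ti 1, the second Herpud1 transcript is high in control 3 and Ti 3, and Cebpg is carried by 1 transcript in Ti 3.

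Of the members 22 overlap another annotated gene and 9 a protein-coding one, and whether counting used strand is not stated, so reads of such neighbours could not be told apart. Ddit3, for example, overlaps Mars on the other strand, Atf5 overlaps Il4i1 and Nup62, Manf overlaps Dcaf1 and Rbm15b, and Aldh1l2 overlaps D10Wsu102e.

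Other genes of these pathways, listed by function and also chosen with earlier results of these data known, were not called either. Of 30 further ER quality control genes 29 were tested, with 0 called, 19 higher and 10 lower and a median log2 fold change of 0.047. Every Ti library was above every control in 4 (13.8%) and below in 5 (17.2%), against 6.63% and 6.71% of all genes. The 3 with the lowest p were Nploc4, Hspa13 and Txndc5. Nploc4, an adaptor of the p97 segregase that extracts proteins from the ER, had 136, 81.0 and 122 CPM in the controls and 56.6, 45.9 and 54.3 CPM with Ti, with a log2 fold change of -1.11 ± 0.21 (SE; edgeR adjusted p = 0.280). Every Ti library was below every control. Txndc5, a disulfide isomerase, was likewise lower, at 173, 309 and 284 CPM against 166, 149 and 170.1 CPM (-0.66 ± 0.22 on the log2 scale, SE; edgeR adjusted p = 0.635). Hspa13, an HSP70 relative of the ER, was separated upwards, at 69.5, 70.2 and 78.3 CPM against 84.9, 93.6 and 93.8 CPM (0.32 ± 0.10 on the log2 scale, SE; edgeR adjusted p = 0.597).

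Of 35 further genes of ATF4 targets, amino acid metabolism and tRNA charging 33 were tested, with 0 called, 17 higher and 16 lower and a median log2 fold change of 0.011. Every Ti library was above every control in 1 (3.03%) and below in 1 (3.03%), against 6.63% and 6.71% of all genes. Cebpb, a transcription factor of macrophage activation and a partner of ATF4, had 143, 147 and 133 CPM in the controls and 179, 172 and 189.5 CPM with Ti. The groups did not overlap, and the log2 fold change was 0.35 ± 0.090 (SE; edgeR adjusted p = 0.458). Slc7a1, an arginine transporter, had 73.0, 107 and 156 CPM and 159, 313 and 139 CPM and overlapped, with a log2 fold change of 0.86 ± 0.40 (SE; edgeR adjusted p = 0.778). Cbs, which makes cystathionine, lay between 0.455 and 1.29 CPM over all libraries and overlapped as well, with a log2 fold change of -0.68 ± 0.36 (SE; edgeR adjusted p = 0.817). Fgf21 and Gdf15, secreted factors induced through ATF4, were too low to be tested.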

How the data were processed

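RNA-seq of 6 RAW264.7 libraries was used, 3 given PBS and 3 given Ti particles, grouped by their labels. The authors deposited whole-number estimated counts per transcript in 187351 rows for each library. HISAT2, StringTie and build mm9 are named, per the submitters' processing notes; no version or counting tool is given in the sources used here. Transcript identifiers in 141862 rows match all transcripts of GENCODE vM21, whose names and GRCm38 coordinates were used, and 45489 assembled rows without a gene (36.9% to 51.17% of totals) were left out.

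Deposited values grew with genomic span (slope of log10 value on log10 span 0.972 over 32351 protein-coding transcripts). Each was multiplied by exon length over genomic span, which left a slope of 0.336, so the correction is approximate, and then summed per gene and rounded. Levels per length divide each transcript's value by its exon length and scale each library to the same sum as CPM. The symbol Ddit3 names a pair of gene IDs in GENCODE and the one with counts was used, and Mars1 was matched to its older symbol Mars.

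The filter, TMM scaling and quasi-likelihood test of edgeR 4.0.16 in R 4.3.3 were used, with Benjamini-Hochberg adjustment over 15376 genes and a threshold of 0.05. The standard error is the log2 fold change over the square root of F. DESeq2 1.42.0 was an alternative, with filters on low counts, unrescaled values, protein-coding transcripts, a replicate block and left-out libraries. Tables and plots were made with Python 3.11.15, pandas 2.3.3 and matplotlib 3.10.9. The fit was also run on counts simulated without any effect of replicate number, and no statement here rests on that run. Members and lists were chosen with earlier results of these data known. By the rule for named genes, every member that passed the filter is described, and of each other list those past the threshold and the 3 with the lowest p.

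Deviations from group means correlated by 0.110, 0.144 and 0.266 between same-numbered libraries and by -0.170 to 0.0402 between others. Such deviations cancel within each group, so positive values for same-numbered libraries push the others down, and the contrast is partly built in. The numbers were taken to pair the libraries, from the data and not the labels, and the paired p-values rest on that choice. No libraries of a group agreed within sampling noise (chi-square of 147 to 508 per gene), and all 6 were kept. Depth gives counting error only.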

Additional observations from a re-analysis of the deposited data

How the results depend on the processing

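Over 14 alternatives, 560 log2 fold changes of members were recomputed: 0 passed the threshold, 506 kept their direction and 54 changed sign, in 20 of the 40 members. With replicates paired (replicate block), Calr became -0.36, and 0 genes were called higher and 0 lower in place of 2 and 2; the block changed no other call. Without a filter, Calr was -0.0054 and Slc7a5 -0.0062, and 1 gene was lower. Sesn2 was 0.00087 with DESeq2's size factors, 0.00090 with its test and 0.0011 with a mean of at least 50 counts. With protein-coding transcripts only, Ern1 was 0.0063, Psph -0.40 and Sesn2 0.017, and 1 gene was higher and 1 lower. DESeq2 called 163 higher and 129 lower. Without both libraries numbered 3, an alternative chosen after seeing the data, Calr was -0.38, Cebpg -0.22, Edem1 -0.00081, Eif2ak3 -0.20, Nupr1 -0.16, Pdia6 -0.053, Sdf2l1 -0.045, Slc3a2 -0.037 and Slc7a5 -0.061, and 0 genes were called. The per-length scale without TMM, also chosen later, left 3 chaperone genes separated in place of 7.

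Leaving out 1 library gave 1 to 8 genes higher and 0 to 7 lower, 7 to 9 separated chaperone genes (against 9.79% to 14.1% of all genes, up from 6.63%), and medians of 0.057 to 0.17 for the chaperone genes and 0.072 to 0.23 for the amino acid genes. Members that changed sign ranged from -0.19 to 0.50 (Atf4), -0.49 to 0.52 (Calr), -0.095 to 0.024 (Canx), -0.39 to 2.62 (Cebpg), -0.23 to 0.78 (Chac1), -1.79 to 0.65 (Ddit4), -0.081 to 0.10 (Edem1), -0.24 to 0.91 (Eif2ak3), -0.15 to 0.15 (Ern1), -0.26 to 0.46 (Nupr1), -0.028 to 0.062 (Pdia6), -0.33 to 0.39 (Ppp1r15a), -0.56 to 0.21 (Sesn2), -0.069 to 0.23 (Shmt2), -0.0072 to 0.21 (Slc3a2), -0.060 to 0.081 (Slc7a5), -0.30 to 1.14 (Trib3) and -0.23 to 0.14 (Xbp1). The cause was not tested. In Ddit3, 1 control library was under the floor of 3 counts.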
